A study of Mus musculus with 8 samples.

Results

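Expression of 10 genes of the bone morphogenetic protein (BMP) pathway was followed in sorted Merkel cells and epidermal cells of newborn mouse skin. The genes were chosen by symbol: the ligands Bmp2, Bmp4 and Bmp7, the type I receptors Bmpr1a and Bmpr1b, the type II receptors Bmpr2, Acvr2a and Acvr2b, and the secreted antagonists Nog and Grem1. All 10 were found among the 24538 gene rows of the count files and in the table of deposited FPKM values (fragments scaled to transcript length and to library size). Enough counts for a test were present for 9 of them, among 15151 genes tested; Grem1 did not pass the filter on low counts.

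The study asks how Merkel cells form in skin with and without hair. All 8 libraries came from Atoh1-GFP mice at postnatal day 0, with 2 libraries in each of 4 groups. Paw Merkel and back Merkel cells were taken from paw and back skin as GFP+, EpCAM+ and Sca1- cells, and the paw IFE and back IFE cells as GFP-, EpCAM+ and Sca1+ cells; the labels do not spell out IFE. All mice thus carried the Atoh1-GFP allele, and no group without it was compared. Atoh1 is the transcription factor that specifies Merkel cells, the touch receptors of the epidermis, so GFP in this gate depends on that gene's own activity. Nothing in the labels tells if paired libraries were made from different mice, and the p-values below therefore measure only the spread between these samples.

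BMP ligands are secreted dimers that bring together type I and type II receptor kinases at the cell surface. The activated type I receptor phosphorylates SMAD1, SMAD5 and SMAD9, which enter the nucleus with SMAD4 and switch on targets such as the Id genes, while Noggin and Gremlin bind the ligands outside the cell and keep them from the receptors. In skin the pathway is known for its part in hair follicle induction, in the balance of growth and differentiation of the epidermis, and in the difference between hairy and glabrous skin.

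Total counts ranged from 11139306 to 26195076 per library, and the correlation of log2 CPM (counts divided by library size) between the 2 libraries of a group ranged from 0.826 in paw Merkel to 0.923 in paw IFE cells, a correlation across genes, which are not independent replicates. The Merkel marker list (8 genes, among them Atoh1, which entered the gate) summed to 2880 to 4041 CPM in the Merkel libraries and to 8.96 to 18.2 CPM in the IFE libraries. Markers of basal keratinocytes (7 of 7 with counts in each library) summed to 1073 to 3451 CPM in Merkel and 24060 to 40930 CPM in IFE libraries, and immune and Langerhans cell markers (3 to 6 of 6 with counts) to 0.228 to 3.45 and 24.8 to 1024 CPM, with Cd207 at 0 in every Merkel library. Back IFE library 2 stood apart from its group: its 11 Hox genes of groups 10 to 13, which mark posterior and distal position, summed to 154.6 CPM, above the 86.9 to 144.5 CPM of the paw libraries and unlike the 6.19 CPM of back IFE library 1 and the 0.684 to 1.37 CPM of back Merkel cells. For many of the calls and values that rest on it, the result without it is therefore also given. In such bulk samples, fewer cells of a type and less RNA per cell cannot be told apart.

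Merkel and IFE cells differed in both receptors and ligands. Levels of Acvr2b were higher in Merkel cells and those of Bmpr1b, Bmp2 and Bmp4 were lower when the Merkel to IFE differences of paw and back were averaged, so that 4 of the 9 tested genes passed the threshold (adjusted p under 0.05, edgeR quasi-likelihood F test with Benjamini-Hochberg adjustment over all 15151 genes, as for every adjusted p given here without another tool). Over all genes tested, 23.9% passed in this comparison, 12.5% as higher and 11.3% as lower. Within the paw 1 of 9 passed, Bmpr1b (lower), where 6.21% of all genes did, 4.28% as higher and 1.93% as lower. In back skin 2 of 9 passed, Acvr2b (higher) and Bmpr1a (lower), where 15.4% of all genes did, 7.99% as higher and 7.45% as lower. As a description, the median log2 fold change of the 9 genes, Merkel minus IFE, was -0.69 in the paw against -0.04 over all genes, -1.02 against -0.06 in back skin, and -0.85 against -0.09 averaged over both sites. These medians did not move when Bmp4 and Nog, which had no count in back Merkel cells, were set to their bounds. Nog reached testable counts through paw IFE library 2 and back IFE library 2 alone, so it could be tested only because of IFE libraries. Bmp4, with Merkel counts in paw Merkel library 1 alone, likewise passed the filter on low counts only because of IFE libraries.

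**Figure D1:**
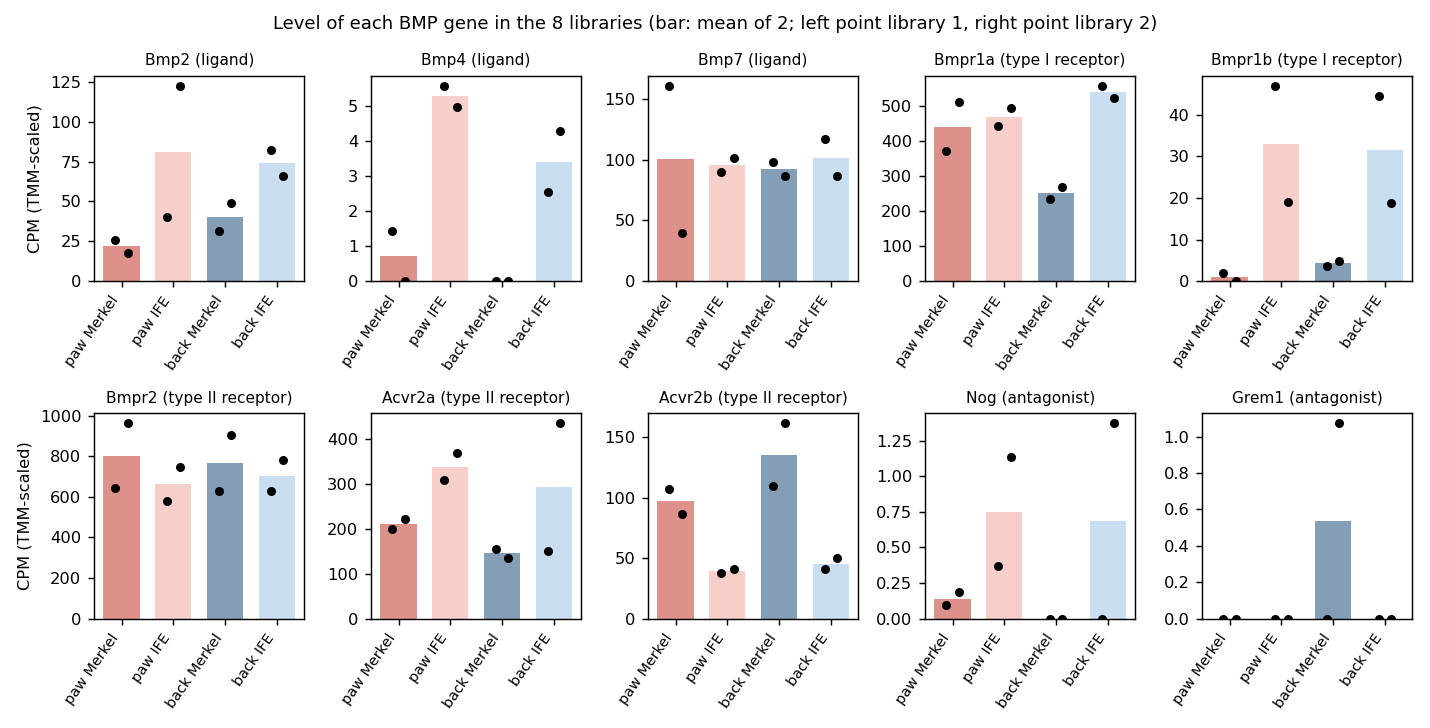
Level of each of the 10 genes in CPM (vertical axis, linear, from 0, with its own scale for each gene) in paw Merkel, paw IFE, back Merkel and back IFE cells; bars are means of 2 libraries and points the libraries, library 1 on the left. The Acvr2b points of the 4 Merkel libraries (86.8 to 161.8 CPM) lie above all 4 IFE points (37.7 to 49.9 CPM), while those of Bmpr1b and Bmp4 lie below.

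Among the ligands, Bmp7 had group means of 92.2 to 101.6 CPM and was not called in any comparison. Bmp2 was lower in Merkel cells and Bmp4 was rare everywhere. Bmp7, a ligand that forms dimers with itself and with BMP2 or BMP4 (GRCm38 chromosome 2, 172868012 to 172940321, minus strand), measured 160.9 and 39.6 CPM in paw Merkel libraries 1 and 2, and 90.2 and 101.5 CPM in paw IFE libraries 1 and 2. In back skin it measured 97.7 and 86.8 CPM in Merkel libraries 1 and 2, and 117 and 86.3 CPM in IFE libraries 1 and 2. The paw Merkel pair held both the highest and the lowest value of the 8, and all neighbouring groups overlapped. The paw Merkel libraries also differed in suprabasal keratinocyte markers, which summed to 5220 CPM in library 1 and 409.9 CPM in library 2, and Bmp4 and Bmpr1b too were higher in library 1; the part of such cells in these values was not tested. The 95% interval of its log2 fold change, Merkel minus IFE, ran from -1.12 to 1.26 in the paw and from -1.33 to 1.05 in back skin. Differences within these intervals were not excluded. Averaged over both sites, the log2 fold change of Bmp7 was -0.04 with a 95% interval of -0.88 to 0.81 (adjusted p = 0.965). The sign of this small difference changed in 4 of 17 alternative analyses, each of which left out 1 library.

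Bmp2 encodes a ligand that acts through BMPR1A and BMPR1B (chromosome 2, 133552159 to 133562885, plus strand). It measured 25.6 and 17.9 CPM in paw Merkel libraries 1 and 2 and 31.3 and 48.8 CPM in back Merkel libraries 1 and 2. Paw IFE libraries 1 and 2 had 39.97 and 122.6 CPM, and back IFE libraries 1 and 2 had 82.1 and 66.1 CPM. At each site both Merkel libraries lay below both IFE libraries, although paw IFE library 1 lay below back Merkel library 2. Group means were 21.7 ± 5.45 CPM (paw Merkel), 40.01 ± 12.4 CPM (back Merkel), 81.3 ± 58.4 CPM (paw IFE) and 74.1 ± 11.4 CPM (back IFE; SD, n = 2 each). The log2 fold change averaged over both sites was -1.39 (SE 0.40, adjusted p = 0.0267). It was -1.90 in the paw (SE 0.57, adjusted p = 0.0791) and -0.89 in back skin (SE 0.56, adjusted p = 0.31), neither past the threshold. Over 18 alternatives the paw value ran from -2.49 (without paw IFE library 1) to -0.88. The back skin value was -1.04 without back IFE library 2. The averaged call was lost without paw Merkel library 2 (adjusted p = 0.0559), paw IFE library 2 (0.216), back Merkel library 1 (0.0831) or back IFE library 1 (0.058), and in limma fits of the deposited FPKM values (adjusted p from 0.0833 to 0.143), but not without back IFE library 2 (log2 fold change -1.47, adjusted p = 0.033). The summed CPM of basal keratinocyte markers, given above, moved with the difference of Bmp2, and its part in it was not tested.

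Bmp4, a ligand that dermal cells also produce (chromosome 14, 46383520 to 46390669, minus strand), had 30 counts in paw Merkel library 1 and 0 in the other three Merkel libraries. IFE cells had 137 and 101 counts in paw libraries 1 and 2, and 47 and 112 in back libraries 1 and 2, which corresponds to 5.58, 4.98, 2.55 and 4.27 CPM. All 4 Merkel libraries thus lay below all 4 IFE libraries, with means of 0.360 and 4.35 CPM. This difference averaged over both sites passed the threshold (adjusted p = 0.0403). Bmp4 passed the filter on low counts only through IFE libraries, where it was higher, so the call is not independent of that filter. Back Merkel cells, with no count in either library, were at least 26.6-fold lower than back IFE cells, taking 3 counts in the whole group as the floor (0.128 CPM), but the test did not call this difference (adjusted p = 0.0739, and 0.148 without back IFE library 2). It was called in 7 of 18 alternatives: with DESeq2 (0.00546), limma-trend (0.0386), no filter (0.0316), FPKM with either pseudocount (0.0448 and 0.0355) and without paw Merkel library 1 (0.0258) or 2 (0.022). In the paw the fitted log2 fold change was -2.83 (SE 2.00, adjusted p = 0.467); all Merkel counts were in paw Merkel library 1, and over 18 alternatives the fitted value ran from -9.56 (without that library, so that no Merkel count was left and the value is no bound) to -1.76 on the log2(FPKM + 1) scale. The averaged call was lost without either paw IFE library (adjusted p = 0.0888 and 0.0842 without libraries 1 and 2), without either back Merkel library (0.102 each) or without back IFE library 2 (0.0737). Of the 2248 exonic bases of Bmp4, 3.96% are shared with the predicted gene Gm15217 on the other strand. The summed CPM of 9 fibroblast and dermal papilla markers stood at 85.7 to 132.6 (paw Merkel), 77.9 to 170.5 (back Merkel), 390.5 to 434.8 (paw IFE) and 92.8 to 411.1 (back IFE), with 4 to 6 of the 9 having counts. Twist2 and Sox18 were at 0 in all libraries and Lum in all Merkel libraries; the part of such cells in the Bmp4 values was not tested. The bases before the Bmp4 start (GRCm38, chr14:46390670-46390919, minus strand, from RefSeq on GRCm38.p6) are shown because Bmp4 and Bmpr1b were lower together in Merkel cells. They hold none of the 3 motifs searched on both strands: GGCGCC, a GC-rich site of SMAD1 and SMAD5, and the E-boxes CAGCTG and CAGATG, a class of site that ATOH1 and related factors bind. Over the 32851 promoter windows of 250 bases in the RefSeq table, 9.59% hold GGCGCC, 13% CAGCTG and 14.4% CAGATG.
Bmp4: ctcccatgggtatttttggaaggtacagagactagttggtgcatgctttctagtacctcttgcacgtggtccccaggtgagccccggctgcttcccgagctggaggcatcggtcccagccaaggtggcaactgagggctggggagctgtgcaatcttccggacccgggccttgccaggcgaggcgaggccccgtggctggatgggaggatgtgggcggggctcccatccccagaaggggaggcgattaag

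Type I receptors carry the kinase that phosphorylates the SMADs. Bmpr1a, the more abundant of the pair in every library, was lower in Merkel than in IFE cells of back skin, and Bmpr1b was lower in Merkel cells of the paw and over both sites. Bmpr1b (chromosome 3, 141837136 to 142169425, minus strand) had 40 and 1 counts in paw Merkel libraries 1 and 2, or 1.92 and 0.0922 CPM. It had 1154 and 385 counts in paw IFE libraries 1 and 2, or 47.0 and 19.0 CPM. Back Merkel libraries 1 and 2 had 3.73 and 4.89 CPM, and back IFE libraries 1 and 2 had 44.5 and 18.9 CPM. Every Merkel library lay below every IFE library, and the IFE groups of paw and back overlapped. The log2 fold change was -4.97 in the paw (SE 1.20, adjusted p = 0.0319), -2.88 in back skin (SE 1.08, adjusted p = 0.0971) and -3.92 averaged over both sites (SE 0.80, adjusted p = 0.00484). In back skin it was -3.37 without back IFE library 2 (adjusted p = 0.0872) and was called in 5 of 18 alternatives: no filter (0.0164), DESeq2 (0.0183), the 4 back libraries alone (0.0482) and without paw Merkel library 1 (0.0181) or 2 (0.0168). The averaged call stood in all 17 alternatives, with a log2 fold change between -5.65 (without paw Merkel library 1) and -1.80, the latter on the log2(FPKM + 1) scale, and was -4.17 without back IFE library 2 (adjusted p = 0.00193). The paw difference rested on fewer libraries: it was -4.10 without paw Merkel library 2 (adjusted p = 0.0536), -4.19 without paw IFE library 1 (0.114) and -8.39 without paw Merkel library 1 (0.00356). The summed basal keratinocyte markers were likewise lower in every Merkel than in every IFE library. The part of these cells and of fibroblasts in the Bmpr1b values was not tested.

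Bmpr1a (chromosome 14, 34410734 to 34503341, minus strand) measured 234.5 and 267.3 CPM in back Merkel libraries 1 and 2, and 557.3 and 522.7 CPM in libraries 1 and 2 of back IFE cells. In paw skin it measured 370.2 and 509.5 CPM in Merkel libraries 1 and 2, and 443 and 494.8 CPM in IFE libraries 1 and 2. Back Merkel cells thus stood below the other three groups in both libraries, whereas Merkel and IFE cells of the paw overlapped. The log2 fold change was -1.11 in back skin (SE 0.30, adjusted p = 0.0305) and -0.09 in the paw (95% interval -0.75 to 0.56, adjusted p = 0.903). The difference between these values, tested as an interaction, was 1.01 (SE 0.42, unadjusted p = 0.0355, adjusted p = 0.536) and did not pass. This interaction was 1.06 without back IFE library 2. The back skin call was lost in 9 of 18 alternatives: without either paw IFE library (adjusted p = 0.0524 and 0.0535 without libraries 1 and 2), back Merkel library 1 (0.147) or 2 (0.123), back IFE library 1 (0.12) or 2 (log2 fold change -1.15, adjusted p = 0.0788), and in the limma fits of FPKM values (0.13 to 0.151). Of its 6351 exonic bases 4.57% overlap the antisense gene Gm17110, and whether the authors counted by strand is not given in the sources used here.

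The promoters of both type I receptor genes are shown because the genes differed in how they were expressed, the one abundant throughout and the other far lower in Merkel than in IFE libraries. They are the parts of the 250 bases before a RefSeq start that lie outside annotated exons, 5′ to 3′, with motif matches in capitals. For Bmpr1a this is chr14:34502688-34502796 (minus strand, 109 bases), with 1 GGCGCC. For Bmpr1b, which has 3 RefSeq windows, it is chr3:141982265-141982514 (minus strand, 250 bases), with CATCTG, the reverse complement of CAGATG, 63 bases before the start. Of the other 2 windows 1 held a CAGCTG, 73 bases before its start and inside an annotated exon, and 1 held none of the motifs. All 3 windows lie inside the annotated gene, whose 5′ end is at 142169425. The whole Bmpr1a window had 78.8% G and C with 36 CpG pairs, and the Bmpr1b window shown had 46.8% with 1 CpG pair. The other 2 Bmpr1b windows had 56.4% and 52.8%, with 5 CpG pairs each. The median over all windows was 52.4%. A match is a run of letters and was not tested as a binding site.
Bmpr1a: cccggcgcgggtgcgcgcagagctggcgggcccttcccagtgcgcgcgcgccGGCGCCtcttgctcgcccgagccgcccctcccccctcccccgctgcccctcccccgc
Bmpr1b: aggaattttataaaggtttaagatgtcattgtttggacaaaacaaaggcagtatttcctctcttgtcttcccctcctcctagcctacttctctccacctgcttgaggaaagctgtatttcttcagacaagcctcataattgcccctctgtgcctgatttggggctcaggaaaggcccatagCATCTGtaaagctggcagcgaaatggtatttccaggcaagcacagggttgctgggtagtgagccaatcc

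Type II receptors bind ligand and activate the type I receptor, and ACVR2A and ACVR2B also serve activins. Acvr2b was higher in Merkel cells, while Bmpr2 and Acvr2a did not pass the threshold in either direction. Acvr2b (chromosome 9, 119402118 to 119434995, plus strand) measured 107.6 and 86.8 CPM in paw Merkel libraries 1 and 2, and 37.7 and 40.9 CPM in paw IFE libraries 1 and 2. In back skin it measured 109.4 and 161.8 CPM in Merkel libraries 1 and 2, and 40.7 and 49.9 CPM in IFE libraries 1 and 2. All 4 Merkel libraries lay above all 4 IFE libraries, and back Merkel lay above paw Merkel libraries by less than the test could resolve (log2 fold change of paw minus back Merkel -0.48, adjusted p = 0.708). The log2 fold change, Merkel minus IFE, was 1.31 in the paw (SE 0.39, adjusted p = 0.0785), 1.58 in back skin (SE 0.40, adjusted p = 0.0208) and 1.44 averaged over both sites (SE 0.28, adjusted p = 0.00348). The averaged call stood in all 17 alternatives, with a log2 fold change of 1.29 to 1.65, and was 1.52 without back IFE library 2 (adjusted p = 0.00811). The back skin call was lost without back Merkel library 2 (log2 fold change 1.27, adjusted p = 0.156), back IFE library 1 (1.44, 0.147) or back IFE library 2 (1.74, 0.0705). The promoter of Acvr2b is shown for contrast with that of Bmpr1b, as the gene that moved the other way: chr9:119401928-119402117 (plus strand, 190 bases outside annotated exons) holds none of the 3 motifs, and its whole window had 72.8% G and C with 24 CpG pairs.
Acvr2b: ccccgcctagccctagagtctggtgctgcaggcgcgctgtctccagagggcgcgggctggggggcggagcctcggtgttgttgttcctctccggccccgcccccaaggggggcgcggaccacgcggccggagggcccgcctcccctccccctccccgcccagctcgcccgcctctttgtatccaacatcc

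Bmpr2 (chromosome 1, 59763400 to 59879014, plus strand), the BMP-specific type II receptor, measured 643.3 and 963.8 CPM in libraries 1 and 2 of paw Merkel cells and 631 and 903 CPM in those of back Merkel cells. IFE cells had 579.9 and 747.4 CPM (paw) and 627.9 and 782.8 CPM (back). The groups overlapped throughout, and the averaged log2 fold change was 0.20 with a 95% interval of -0.32 to 0.72 (adjusted p = 0.589). Acvr2a (chromosome 2, 48814109 to 48903269, plus strand) measured 199.5 and 221.4 CPM in libraries 1 and 2 of paw Merkel cells and 155.6 and 134.8 CPM in those of back Merkel cells. IFE cells had 308 and 369.5 CPM (paw) and 151.7 and 435.9 CPM (back). The paw groups did not overlap, with a log2 fold change of -0.69 (SE 0.43, adjusted p = 0.406), and the back groups did. The 2 back IFE libraries lay on either side of the other values: the library with the Hox sum of a paw library was the highest of the 8, and the other one lay between the back Merkel libraries. In back skin the log2 fold change of Acvr2a was -1.02 with both (adjusted p = 0.141). It came to -0.07 when library 2 of back IFE was left out (0.978) and to -1.59 when library 1 was (0.0166). Averaged over both sites, the log2 fold change of Acvr2a was -0.85 (SE 0.31, adjusted p = 0.0673), and edgeR with no filter called it lower (0.0113). The averaged value was -0.38 without back IFE library 2 and -1.14 without back IFE library 1. Orc4, on the other strand, shares 7.84% of the exonic bases of Acvr2a.

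**Figure D2:**
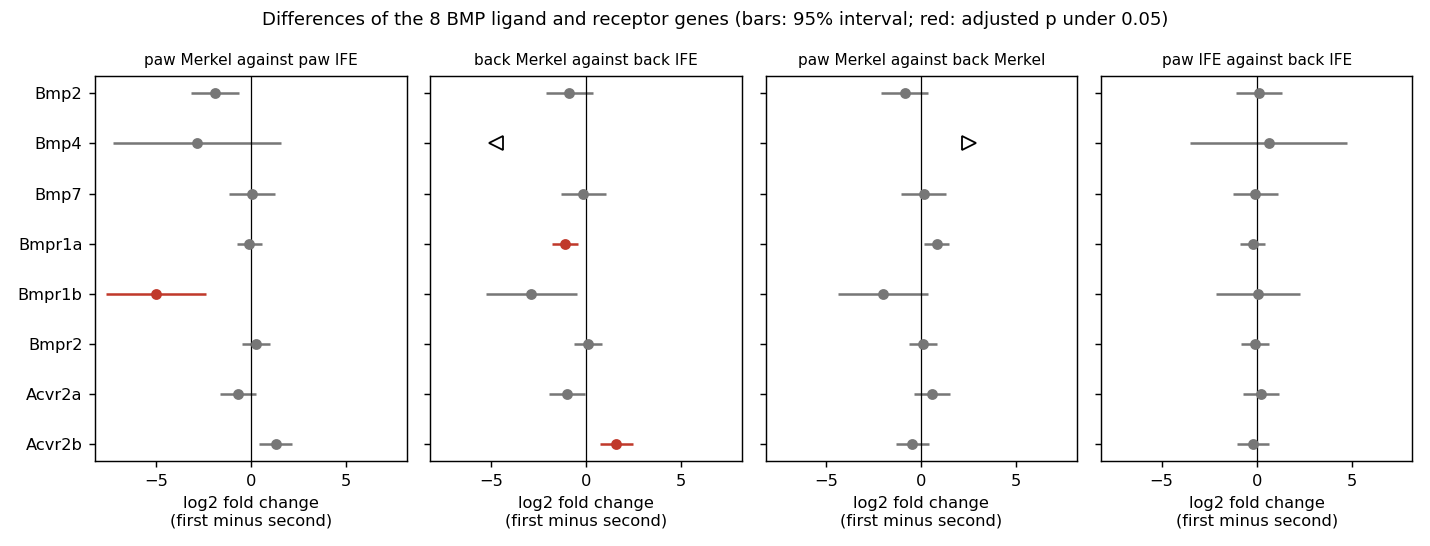
Log2 fold change (horizontal axis, first group minus second) of the 8 ligand and receptor genes in 4 comparisons of 2 groups, with 95% intervals; red marks an adjusted p under 0.05, and open triangles are lower bounds where a group had no counts. Bmpr1b in the paw (-4.97) and Bmpr1a (-1.11) and Acvr2b (1.58) in back skin are the red points, and the comparisons between sites have none.

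The antagonists were at or near the limit of detection. Nog encodes Noggin, which binds BMP2, BMP4 and BMP7 (chromosome 11, 89300638 to 89302332, minus strand). It had 2 and 2 counts in libraries 1 and 2 of paw Merkel cells and 0 and 0 in those of back Merkel cells, against 9 and 23 (paw) and 0 and 36 (back) in IFE cells. IFE library 2 of either site held most of these counts, and 3 counts corresponded to 0.115 to 0.293 CPM depending on the library. The difference averaged over both sites did not pass (means 0.0701 CPM in Merkel and 0.719 CPM in IFE cells, adjusted p = 0.171), and without back IFE library 2 no Nog count remained in back skin. Grem1 encodes Gremlin 1, an antagonist of BMP2 and BMP4 (chromosome 2, 113746164 to 113758646, minus strand). It had 11 counts in back Merkel library 2, or 1.08 CPM, and 0 in the other seven libraries, which allows up to 0.277 CPM in the shallowest of those, paw Merkel library 2. A difference in either antagonist was not detectable at this depth. Such limits hold for counting error alone, since reads of amplified RNA can share a molecule.

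Between sites, none of the 9 genes passed the threshold. For paw against back Merkel cells the count was 0 of 9, where 0.185% of all genes passed, 0.178% as higher and 0.0066% as lower. DESeq2 and limma-trend called 0 of the 9 as well. An unadjusted p under 0.05 was found for 2 of the 9 and for 1550 of all 15151 genes. The 2 were Bmpr1a, higher in both paw libraries (log2 fold change 0.81, SE 0.30, unadjusted p = 0.0208, adjusted p = 0.384), and Bmp4, whose paw mean rests on 1 library (adjusted p = 0.475). For paw against back IFE cells the count was 0 of 9 at an adjusted p under 0.05 and 0 of 9 at an unadjusted p under 0.05. Over all genes edgeR called 0% there, with 643 genes at an unadjusted p under 0.05, 0 called by limma-trend and 87 by DESeq2. For the interaction of cell type and site the count was 0 of 9 as well, with Bmpr1a at an unadjusted p under 0.05. Over all genes edgeR called 0% in the interaction, with 1365 genes at an unadjusted p under 0.05, 0 called by limma-trend and 298 by DESeq2, none of them among the 9. The 95% interval of the paw minus back IFE difference ran from -1.09 to 1.35 for Bmp2, from -2.14 to 2.26 for Bmpr1b and from -1.06 to 0.65 for Acvr2b on the log2 scale. Site differences within these intervals were not excluded. Without back IFE library 2 the same difference was -0.43 for Bmpr1b and -0.05 for Acvr2b, and that of Acvr2a was 1.16 in place of 0.21, with adjusted p of 0.995, 1 and 0.559.

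The order of the group means is given here for each gene, with neighbours named as overlapping where their libraries do. For Bmp2 and Bmpr1b the order was paw IFE, back IFE, back Merkel and paw Merkel, with overlap between the 2 IFE groups. For Bmp4, Acvr2a and Nog it was paw IFE, back IFE, paw Merkel and back Merkel. The Merkel groups overlapped for Bmp4, whereas for Acvr2a and Nog back IFE overlapped with both paw groups. For Acvr2b it was back Merkel, paw Merkel, back IFE and paw IFE, with overlap of the IFE groups. Bmpr1a followed back IFE, paw IFE, paw Merkel and back Merkel, with overlap of the paw groups, and the neighbours of Bmp7 and Bmpr2 overlapped at every step. Grem1 had counts in 1 back Merkel library and 0 in the other groups.

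Set against one another per transcript length, on the scale of deposited FPKM, Bmpr1a and the 3 type II receptor genes lay above Nog and Grem1 in every group, whereas Bmpr1b lay near them in Merkel cells (0.163 FPKM beside 0.148 FPKM for Nog in the paw, and 0.632 FPKM beside 0.288 FPKM for Grem1 in back skin). In Merkel cells Bmpr1a had 66.1 ± 16.2 FPKM (paw) and 44.6 ± 5.46 FPKM (back), and in IFE cells 71.8 ± 4.54 FPKM (paw) and 70.8 ± 2.44 FPKM (back; SD, n = 2). Bmpr2 had 58.9 ± 22.1 and 64.0 ± 18.7 FPKM in Merkel cells of paw and back, and 45.9 ± 6.29 and 39.9 ± 7.64 FPKM in IFE cells. Both lay above 93.4% or more of all genes in each group. In back Merkel cells Bmpr2 ranked above Bmpr1a by mean, whereas in the other 3 groups Bmpr1a ranked first; their ranges overlapped in paw Merkel cells alone. Acvr2b made up 9.66 to 17.2% of the summed FPKM of the 3 type II receptors in Merkel libraries and 4.17 to 7.04% in IFE libraries, without overlap. Bmpr1b made up 0.023 to 1.83% of the summed FPKM of the type I pair in Merkel libraries and 3.08 to 9.32% in IFE libraries, again without overlap. Bmp7 held 66.4 to 86.0% of the summed ligand FPKM in Merkel and 46.6 to 64.0% in IFE libraries, and Bmp4 at most 1.5% and 8.01%. Shares are a description and were not tested.

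**Figure D3:**
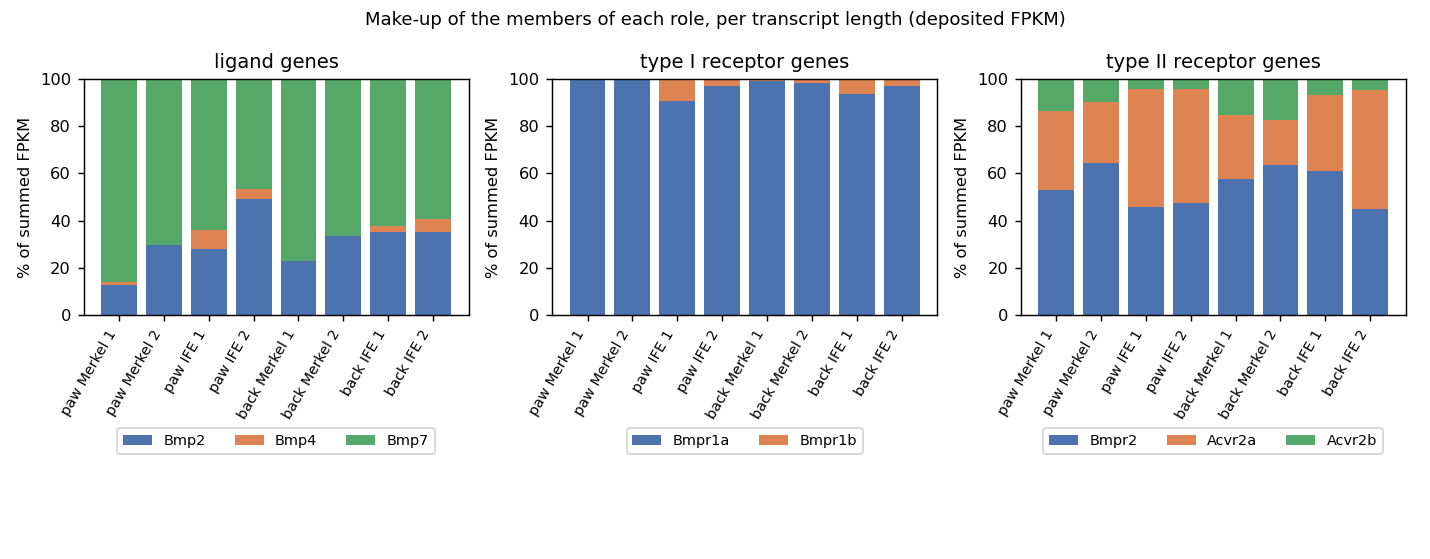
Share of each gene (vertical axis, percent from 0 to 100) in the summed FPKM of the 3 ligands, the 2 type I receptors and the 3 type II receptors shown, 1 bar for each of the 8 libraries. The Acvr2b section of the type II bars is 9.66 to 17.2% in Merkel and 4.17 to 7.04% in IFE libraries, and Bmp7 is the largest section of the ligand bars except in paw IFE library 2, where Bmp2 has 49.0% and Bmp7 46.6%.

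For each of the 5 genes that passed in some comparison, the genes with the most similar course over the 8 libraries were found by the root mean square difference of centred log2 CPM. Acvr2b had among its nearest genes Fermt2, encoding an integrin adaptor (difference 0.191, where the spread of Acvr2b itself was 0.758). Bmpr1a was nearest to Pak2, a protein kinase gene (0.121, own spread 0.441), and Sept7, a septin gene (0.127). Bmpr1b was nearest to Mthfd1, a gene of folate metabolism (0.561, own spread 2.48), and Swap70 (0.567). Bmp2 was nearest to Keap1, encoding the repressor of the NRF2 stress response (0.309, own spread 0.857), and Dusp22, a phosphatase gene (0.348). Bmp4 was nearest to Atp6v0a4, a proton pump subunit gene (0.343, own spread 2.47), and Casr, the calcium-sensing receptor gene (0.418). The 8 libraries share their groups and depth, and likeness here is a description.

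Of 53 other genes of the pathway, 37 could be tested. In the paw 1 was higher in Merkel cells and 0 were lower, in back skin 1 was higher and 7 were lower, and averaged over both sites 1 was higher and 9 were lower, to be read against the shares of all genes given above. The medians of the 37 were -0.54, -0.71 and -0.74 in these comparisons. The gene higher in all 3 was Gdf11, a ligand of the same superfamily that signals through ACVR2A and ACVR2B to SMAD2 and SMAD3. It measured 60.9 and 148.8 CPM in libraries 1 and 2 of paw Merkel cells and 80.5 and 113.3 CPM in those of back Merkel cells, against 15.0 and 16.3 CPM (paw) and 10.7 and 16.4 CPM (back) in IFE cells. All Merkel libraries lay above all IFE libraries, as for Acvr2b. The log2 fold change of Gdf11 was 2.74 in the paw (SE 0.54, adjusted p = 0.0119), 2.84 in back skin (SE 0.54, adjusted p = 0.0051) and 2.79 averaged (SE 0.38, adjusted p = 0.000405). Without back IFE library 2 the averaged value was 2.96. The paw call of Gdf11 was lost without paw Merkel library 2 (log2 fold change 1.96, adjusted p = 0.0628), paw IFE library 1 (2.68, 0.0617) or paw IFE library 2 (2.81, 0.0578), and the back skin value was 3.18 without back IFE library 2 (adjusted p = 0.0121).

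Among antagonists and binding proteins on that list, 7 of 13 could be tested, and 3 were lower in back Merkel than in back IFE cells and 4 averaged over both sites, with none higher. Fst, encoding follistatin, which binds activins and BMPs, measured 48.6 and 11.4 CPM in libraries 1 and 2 of paw Merkel cells and 15.7 and 18.7 CPM in those of back Merkel cells, against 70.7 and 158.8 CPM (paw) and 197 and 92.6 CPM (back) in IFE cells. No Merkel library reached an IFE library. The log2 fold change of Fst was -3.08 in back skin (SE 0.70, adjusted p = 0.0133), -3.52 there without back IFE library 2 (0.00426), and -2.50 averaged (SE 0.49, adjusted p = 0.00351). The back skin call was lost without back Merkel library 1 (adjusted p = 0.0736) or 2 (0.065) and moved to -2.44 without back IFE library 1 (0.0439), and the averaged value moved to -3.23 without paw Merkel library 1 (0.000367). Fstl1, a secreted follistatin-like glycoprotein gene, averaged -2.83 (SE 0.56, adjusted p = 0.00399; -2.12 and 0.0157 without back IFE library 2), with overlap between the cell types. The others were Fstl1 and Sostdc1 in back skin and Sostdc1 and Nbl1 on average, which fell outside the rule for naming genes in those comparisons and are named after their values were seen. Bmp1, a protease that processes extracellular matrix and releases BMPs from chordin, measured 15.8 and 8.99 CPM in back Merkel against 91.3 and 37.9 CPM in back IFE libraries 1 and 2 and was lower in back Merkel cells (log2 fold change -2.38, SE 0.62, adjusted p = 0.0251). Its call was lost without back Merkel library 1 (-2.87, adjusted p = 0.0512), back Merkel library 2 (-2.03, 0.151) or back IFE library 1 (-1.61, 0.197), and it was -2.88 without back IFE library 2 (0.0107). Acvrl1, a type I receptor gene known from endothelium, averaged 0.222 CPM in Merkel and 7.02 CPM in IFE libraries (averaged log2 fold change -5.61, SE 1.28, adjusted p = 0.00873), and was -7.03 without back Merkel library 1 (adjusted p = 0.0214) and -6.68 without paw Merkel library 1 (0.00574). The 5 endothelial markers, 1 to 3 of them with counts and Tie1 at 0 in every library, summed to 0.383 to 11.3 CPM in Merkel and 1.53 to 3.89 CPM in IFE libraries. The part of such cells in the Acvrl1 values was not tested. Of the 4 SMAD transducers (Smad1, Smad4, Smad5 and Smad9), 0 passed in each of the 6 comparisons with edgeR, DESeq2 or limma-trend. In edgeR 1 had an unadjusted p under 0.05, for paw against back Merkel cells, where 1550 of 15151 genes did.

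**Figure D4:**
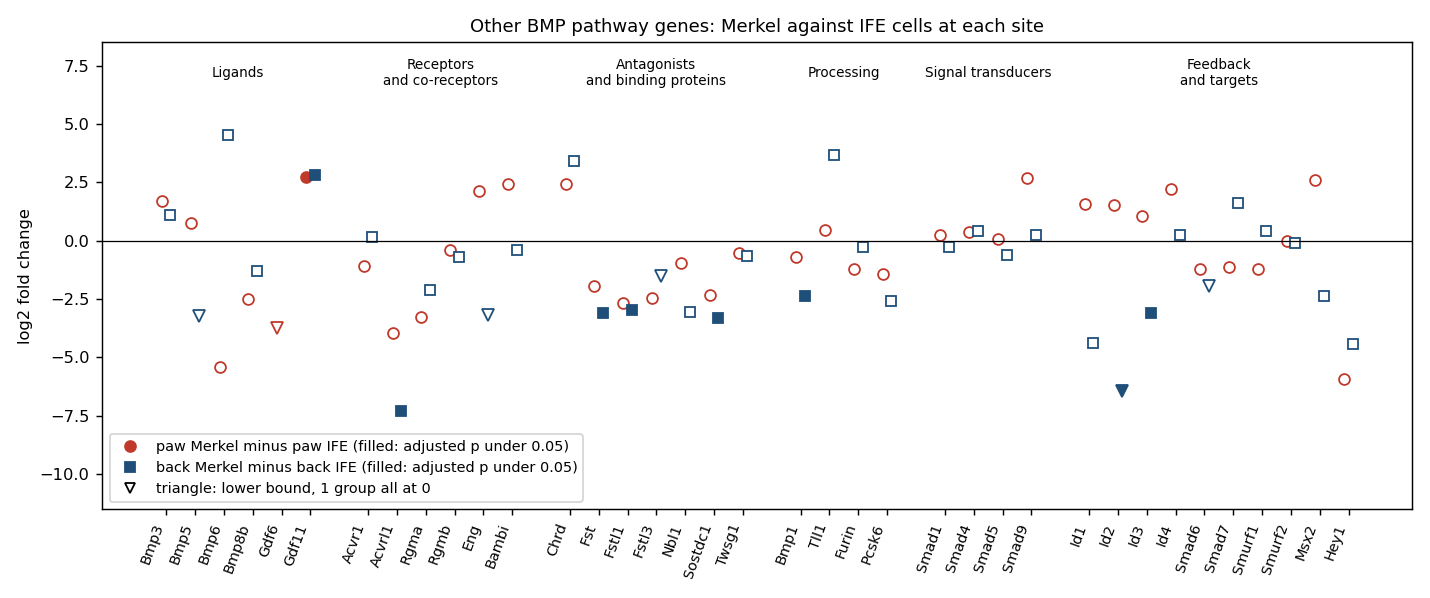
Log2 fold change (vertical axis) of Merkel minus IFE cells in the paw (circles) and in back skin (squares) for the 37 tested genes of the wider pathway, ordered by role; filled symbols have an adjusted p under 0.05 and triangles are lower bounds where a group had no counts; a gene with too few counts for a bound is not drawn at that site. Gdf11 is filled on the upper side at both sites (2.74 and 2.84), and Id1, Id2 and Id3 have their paw symbols above and their back symbols below 0.

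The Id genes, which encode inhibitors of basic helix-loop-helix factors and are direct BMP targets, included 2, Id2 and Id3, that differed between paw and back Merkel cells. Id3 measured 101.4 and 85.2 CPM in paw Merkel libraries 1 and 2 against 6.09 and 3.03 CPM in back Merkel libraries 1 and 2. Id2 measured 31.7 and 16.9 CPM in paw Merkel libraries 1 and 2 and had no count in either back Merkel library. Both passed as higher in paw Merkel cells: Id3 with a log2 fold change of 4.35 (SE 0.70, adjusted p = 0.0429) and Id2 at least 189-fold higher (adjusted p = 0.0429). They were 2 of the 37 tested list genes, where 0.185% of all genes passed, with 0 lower and a median of 0.81 (0.77 with genes at 0 set to their bounds) against 0.03 over all genes. Both calls were lost without back Merkel library 1 (adjusted p = 0.1 for Id3, with a log2 fold change of 4.98, and 0.126 for Id2) or library 2 (0.201 and 0.165). In the same comparison Id1 (13.5 and 0.0489 CPM, adjusted p = 0.128) and Id4 (49.2 and 9.78 CPM, adjusted p = 0.373) were higher in both paw libraries without passing, although Id1 was called with DESeq2 (0.000155), no filter (0.0146) and FPKM with either pseudocount (0.0463 and 0.0492). Markers of some other cells moved the same way between paw and back Merkel libraries. Of 7 basal keratinocyte markers 0 passed and 7 had an unadjusted p under 0.05 (median log2 fold change 1.15). Of 4 testable fibroblast markers 1 passed as higher and 3 had an unadjusted p under 0.05 (median 3.53). Over all 15151 genes, 1550 had such a p. The summed fibroblast markers overlapped, at 85.7 to 132.6 CPM in paw and 77.9 to 170.5 CPM in back Merkel libraries. Medians were also above 0 for suprabasal, hair follicle, melanocyte, immune and Schwann cell markers (0.25 to 1.32). They were below 0 for endothelial (-1.94) and skeletal muscle markers (-0.87, 1 testable). The part of such cells in the Id values was not tested.

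In IFE cells of paw against back, none of the 4 Id genes passed and the count over the list was 0 of 37 (2 at an unadjusted p under 0.05). The log2 fold changes of Id1 to Id4 there were 2.10, -0.44, 0.19 and 0.35. Without back IFE library 2 they were 2.39, -0.12, 1.31 and 1.72. In Merkel against IFE cells of the paw, Id1 to Id4 had log2 fold changes of 1.56, 1.55, 1.04 and 2.22, with both Merkel libraries above both IFE libraries for each, but none passed (adjusted p from 0.154 to 0.533). In back skin Id2 was at least 87.5-fold lower in Merkel cells (adjusted p = 0.00314) and Id3 lower by a log2 fold change of -3.11 (SE 0.66, adjusted p = 0.00873), while Id1 (-4.37, adjusted p = 0.0967) and Id4 (0.24, adjusted p = 0.875) did not pass. Without back IFE library 2 the call of Id2 stood (adjusted p = 0.00389) and Id3 was -2.005 (adjusted p = 0.0686); without back Merkel library 2 Id3 was -2.71 (0.0671), and without library 1 of back Merkel or of back IFE -3.73 (0.0202) and -3.74 (0.000943). The interaction of cell type and site was not called for any of the 4 or for any of the 37 (adjusted p of Id1, Id2, Id3 and Id4 0.462, 0.165, 0.242 and 0.664; 7 of the 37 at an unadjusted p under 0.05; 0 of 37 with limma-trend); DESeq2 called 2, Id2 (adjusted p = 1.58e-05) and Id3 (0.00201). In edgeR the interaction had a log2 fold change of 12.2 for Id2 and 4.16 for Id3. Without back IFE library 1 these values were 12.5 and 4.78, and without back IFE library 2 they were 11.8 and 3.05. Without paw Merkel library 2 that of Id2 was 12.7. The Id2 values were fitted with back Merkel libraries at 0 and are no bounds. Averaged over both sites Id2 passed as lower (adjusted p = 0.0105) in a fit that averages log2 differences, with back Merkel libraries at 0. For Id2 the fitted value was -4.56, and -4.35 without back IFE library 2. Its mean level was higher in Merkel (12.1 CPM) than in IFE cells (9.75 CPM), so the sign of this call holds for the log scale alone. Id1, Id3 and Id4 did not pass on average (adjusted p 0.341, 0.107 and 0.147). The averaged log2 fold change of Id3 was -1.04, and it depended on the back IFE library kept. It was -1.35 without back IFE library 1 and -0.48 without back IFE library 2.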

How the data were processed

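RNA of sorted cells was amplified and sequenced as paired-end reads in 8 libraries. The authors deposited raw counts per gene for each library and a table of FPKM values. Per the submitters' processing notes the tools included TopHat2 2.0.13, Cufflinks 2.2.1, featureCounts of Subread 1.4.6 and DESeq2 1.6.3, with mm10 as the build; the annotation and the strand setting are not given in the sources used here. Per the labels, cells were released with collagenase and then trypsin, and no batch or date is named.

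The deposited counts were tested in R 4.3.3 with edgeR 4.0.16: filterByExpr, TMM scaling, 1 mean per group over all 8 libraries (4 residual degrees of freedom) and the quasi-likelihood F test, with Benjamini-Hochberg adjustment over 15151 genes and a threshold of 0.05, in 6 comparisons of groups. CPM use TMM-scaled library sizes, and errors are SE or SD with n = 2. Bounds for groups at 0 use 3 counts over the group, since depth sets what could be seen, and cover counting error only. The deposited FPKM values were used for levels between genes and, as log2(FPKM + 1) or log2(FPKM + 0.1), in limma 3.58.1 as an alternative; a fold change on that scale understates the change of low genes. Other alternatives were DESeq2 1.42.0, limma-trend, RLE scaling, other filters, a replicate block, each pair of groups fitted alone, and leaving out each library. The code was checked on simulated counts.

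The members and the lists were chosen with earlier results of these data known. Named beside the members were, from the list of other pathway genes, up to 5 genes per comparison with the smallest adjusted p past the threshold, the 4 Id genes, and the 2 genes nearest to each called member on log2 CPM (prior count 2), of which 1 is not reported here. Positions and exons are from GENCODE vM21 (GRCm38). Promoters, present for 7 of the 10 members and not for Bmp2, Bmp7 and Nog, are from RefSeq (GRCm38.p6). Genes that share exonic bases are given with the share.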

Additional observations from a re-analysis of the deposited data

How the results depend on the processing

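With no filter on low counts, 2 of the 10 genes passed in the paw and 4 in back skin, in place of 1 and 2. With DESeq2, 3 passed in the paw and 4 in back skin. Over all genes, no filter called 1920 of 19152 in the paw and 3320 in back skin, and DESeq2 2364 and 4215 of the 24538 in the files. In limma fits of FPKM values, 0 passed in the paw with a pseudocount of 1, with 0.1 and without a filter. Over all genes 6.73%, 5.67% and 2.44% passed in these fits. Without a filter 1 passed in back skin, where 12.9% of all genes did. Fitting the 4 libraries of the paw alone left 0, where 3.84% of all genes passed. Leaving out each library in turn gave 0 to 1 in the paw, 0 to 4 in back skin and 2 to 4 averaged over both sites, and 0 in the other 3 comparisons; without back IFE library 2 the counts were 0 in back skin and 3 averaged. For the other pathway genes, no filter gave 5 in the paw (in place of 1), 4 for paw against back Merkel cells (in place of 2) and 2 for the interaction (in place of 0). DESeq2 gave 7, 4 and 2 in the same comparisons. Over all genes no filter called 10%, 2.36% and 1.59% there, and DESeq2 9.63%, 2.55% and 1.21%. FPKM values with a pseudocount of 0.1 gave 0 in the paw, where 5.67% of all genes passed. FPKM values without a filter gave 4 in back skin (in place of 8), 0 for paw against back Merkel cells and 6 averaged (in place of 10). Over all genes these fits called 12.9%, 0.133% and 17.7%. The 4 Merkel libraries alone gave 0, where 0.0381% of all genes passed. Leaving out each library gave 0 to 3 in the paw, 3 to 9 in back skin, 0 to 2 for paw against back Merkel cells, 0 to 2 for the interaction, 7 to 10 averaged and 0 for paw against back IFE cells. The cause of these shifts was not tested.

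Over all genes the alternatives called 441 to 2369 genes in the paw, 1307 to 4215 in back skin, 1 to 625 for paw against back Merkel, 0 to 120 for paw against back IFE, 0 to 305 for the interaction and 2587 to 5029 averaged. Among the members, the Id genes and the list genes named by rule, no called gene changed its direction in any alternative run. Sostdc1 and Nbl1, and Fstl1 in back skin, were not followed through these runs. Libraries of different groups share only the numbers 1 and 2, and the correlations of same-numbered deviations from the group means ranged from -0.043 to 0.084. With the replicate block 5 of the 10 genes passed averaged over both sites, where 24.1% of all genes did. The added one was Bmpr1a (log2 fold change -0.61, adjusted p = 0.0449). The counts of the other 5 comparisons stayed at 1, 2, 0, 0 and 0, beside 7.55%, 16.6%, 0.271%, 0.0066% and 0.0264% of all genes. RLE scaling moved the median of all genes by at most 0.059 on the log2 scale. Levels scaled by total counts stayed within 1 SD of the TMM-scaled levels in 40 of 40 cases. Differences in Nog, Grem1 and, in Merkel cells, Bmp4 are limited by depth.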
